A study of Mus musculus with 20 samples.

Results

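The 10 genes described here are those of the interleukin-6 (IL-6) family and its main signalling route: the ligands *Il6*, *Lif*, *Osm* and *Clcf1*, the receptor chains *Il6ra*, *Lifr*, *Osmr* and *Il6st*, the transcription factor *Stat3* and the feedback inhibitor *Socs3*. They were taken by symbol, and each of the 10 had 1 probe set among the 19505 genes with a level in whole plantaris muscle. Messenger RNA had been measured on Affymetrix arrays in female mice aged 5 months of the genotype Pax7CreER/+; Rosa26DTA/+, in which tamoxifen switches on diphtheria toxin A in cells that express Pax7, the transcription factor of muscle satellite cells. The groups were tamoxifen-treated, satellite cell-depleted muscle (SC-) and vehicle-treated, satellite cell-replete muscle (SC+), each after sham surgery or after 1, 3, 5 or 7 days of mechanical overload (MOV) by synergist ablation. All mice carried both alleles, and since no group received tamoxifen without losing its satellite cells, effects of depletion and of the drug cannot be told apart. There were 20 arrays in 10 groups of 2, and every array was a pool of RNA from several mice, so errors and p-values describe the spread between pools.

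IL-6 family cytokines share gp130, the signalling chain encoded by *Il6st*, and differ in the chain that pairs with it. IL-6 first binds the IL-6 receptor, which can be on the membrane or shed from it, LIF pairs gp130 with the LIF receptor, and oncostatin M in the mouse acts mainly through the OSM receptor. JAK kinases on these chains phosphorylate STAT3, which enters the nucleus and induces its own inhibitor, SOCS3, among many targets, and in muscle this route is known in overloaded and injured fibres, in satellite cells and in infiltrating leukocytes.

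MOV raised the messenger RNA of the IL-6 ligand, of the OSM receptor, of *Stat3* and, early on, of *Socs3*, and lowered that of the LIF receptor, while the shared chain gp130 did not pass the test on any day. This was so in SC- and in SC+ muscle. The log2 fold changes of *Il6* at day 1 were 3.06 in SC- muscle and 3.51 in SC+ muscle, and those of *Lifr* were -1.84 in SC- muscle and -2.15 in SC+ muscle. The size of the *Stat3* rise is uncertain, because its sham arrays lay far apart (9.11 and 10.77 in SC-, 8.97 and 10.35 in SC+). Some calls of *Stat3* and *Socs3*, day 1 included, ended when 1 array was left out, as given below. The size of the *Il6* rise is uncertain too, because its 4 sham arrays lay within the range of the background probe sets and differed from each other. Without replicate 1 of the sham group it was 1.94 in SC- muscle, which did not pass (adjusted p = 0.128), and 2.67 in SC+ muscle (adjusted p = 0.00583). Apart from *Lif*, whose rise was seen in SC- muscle from a lower sham level, and *Osm* at day 7, no member had a response that differed between SC- and SC+ muscle at an unadjusted p under 0.05.

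Members were counted as called at an adjusted p under 0.05 (limma, Benjamini-Hochberg over 19505 genes). The SC+ responses were fitted on the SC+ arrays alone and the SC- responses on the arrays of both muscles. Counts in SC- and SC+ muscle therefore rest on unlike fits and are not compared with each other. With all arrays in the fit, the SC+ calls of *Il6ra* and *Socs3* at day 3 and of *Il6* at day 5 ended, as given below. In SC- muscle 5, 5, 4 and 3 members rose at days 1, 3, 5 and 7, and 1 member fell on each day. Of all genes tested, 6.8%, 11.7%, 14.9% and 15% rose on those days in SC- muscle, and 7.62%, 9.57%, 13% and 13.6% fell. In SC+ muscle 4, 5, 3 and 0 members rose and again 1 fell on each day, against 8.7%, 12%, 11.4% and 10.5% of all genes that rose and 9.03%, 9.52%, 7.87% and 7.59% that fell. The member that fell was *Lifr* throughout. At day 7 in SC+ muscle, 2 members, *Lifr* and *Stat3*, had an unadjusted p under 0.05. The median log2 fold change of the 10 genes was 0.75, 0.85, 0.61 and 0.73 at days 1, 3, 5 and 7 in SC- muscle, where the median of all genes lay between -0.10 and -0.01. It was 0.42, 0.70, 0.49 and 0.24 in SC+ muscle, where the median of all genes lay between -0.10 and -0.03. The plot of responses shows these fold changes gene by gene.

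**Figure D1:**
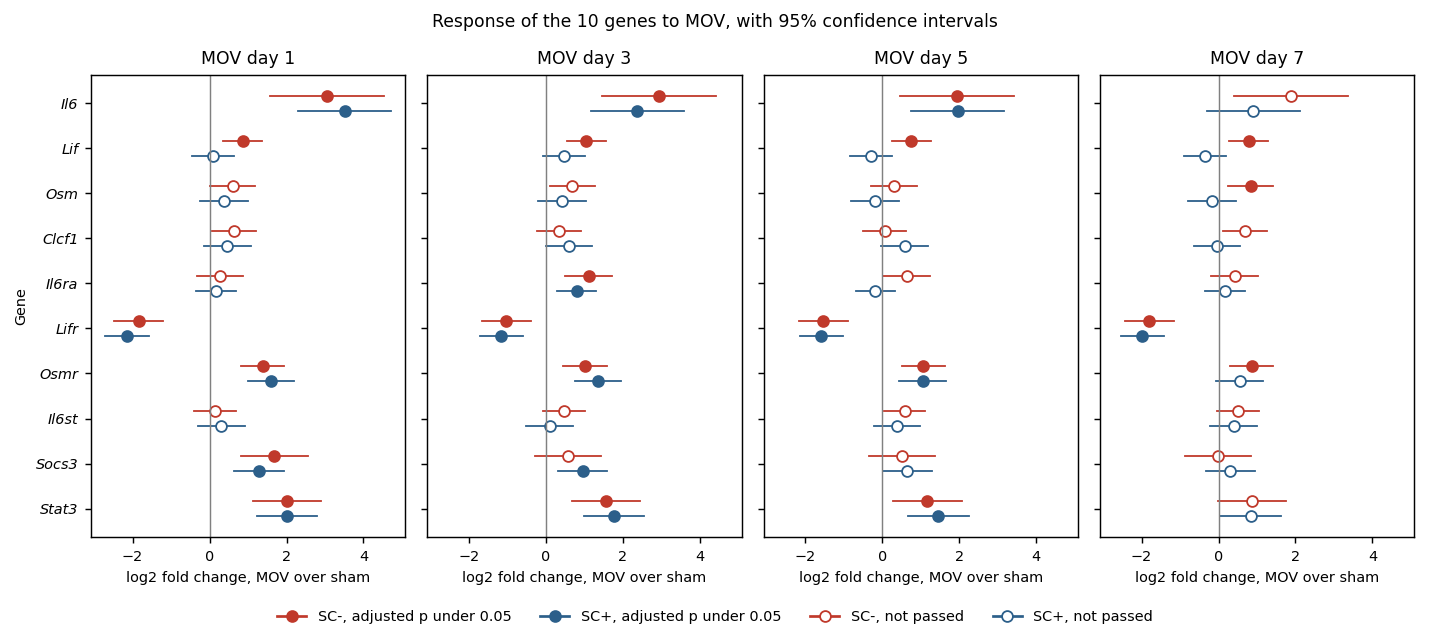
Log2 fold change of each of the 10 genes, MOV over sham, at days 1, 3, 5 and 7, in SC- (red) and SC+ (blue) plantaris muscle, with 95% confidence intervals as lines. Filled points passed an adjusted p under 0.05: *Il6*, *Osmr* and *Stat3* lie right of 0 at days 1, 3 and 5 in both, and *Lifr* lies left of 0 on all 4 days in both.

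The sham arrays were less alike than those of most other groups. The 2 arrays of a group correlated at 0.983 in SC- sham and 0.978 in SC+ sham, with 1051 and 1149 genes more than 1 log2 unit apart, against 0.983 to 0.991 and 256 to 876 genes in the MOV groups. In both sham groups replicate 2 was above replicate 1 for *Il6*, *Stat3* and *Il6st*, and for *Lcn2*, a protein of neutrophils and stressed tissue (7.74 and 13.48 in the SC- sham arrays, 5.91 and 12.14 in the SC+ sham arrays). Over 13 macrophage marker genes the median level was 7.65 and 7.86 in the SC- sham arrays and 7.28 and 8.81 in the SC+ sham arrays, and over 8 neutrophil marker genes it was 4.78 and 5.71 in SC- sham and 4.70 and 6.25 in SC+ sham. Over 7 myoblast and regenerating fibre genes it was 8.35 and 7.08 in SC- sham and 6.87 and 12.74 in SC+ sham. The part of these differences in the results below was not tested.

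The labels of tissue and depletion were set against marker genes. The myofibre genes *Ckm* and *Acta1* lay at 15.26 to 18.36 and 19.91 to 19.93 on the 20 arrays. *Pax7* was dim throughout, between 3.77 and 4.70 on SC- arrays and between 4.17 and 5.22 on SC+ arrays, and was lower in SC- over all time points by a log2 difference of -0.46 (unadjusted p = 0.000969, adjusted p = 0.212). Of 8 satellite cell markers 5 were lower in SC- over all time points and 0 were higher at an unadjusted p under 0.05, and of 7 myoblast genes 6 were lower and 0 higher. In sham and at days 1, 3, 5 and 7, 2, 0, 3, 3 and 4 of the satellite cell markers were lower. For the myoblast genes the counts were 2, 0, 5, 5 and 5. At day 1 the median differences of the lists were 0.16 and 0.25, so these markers did not show the depletion on that day.

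*Il6*, which encodes a cytokine made by loaded muscle fibres, fibroblasts and leukocytes, had the largest rise among the 10 genes. Its RMA level (log2 scale) in SC- muscle was 4.41 and 6.64 in the 2 sham arrays, 8.30 and 8.86 at day 1, 8.22 and 8.71 at day 3, 7.98 and 6.98 at day 5, and 8.40 and 6.42 at day 7. In SC+ muscle it was 4.04 and 5.73 in sham, 7.71 and 9.07 at day 1, 7.46 and 7.06 at day 3, 7.38 and 6.32 at day 5, and 6.07 and 5.49 at day 7. Both MOV arrays lay above both sham arrays at days 1, 3 and 5, and the groups overlapped at day 7, in SC- and in SC+ muscle.

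The log2 fold changes of *Il6* in SC- muscle at days 1, 3, 5 and 7 were 3.06, 2.94, 1.95 and 1.88 (standard error 0.70), with adjusted p of 0.00594, 0.00473, 0.0457 and 0.053 in limma. In SC+ muscle they were 3.51, 2.38, 1.96 and 0.90 (standard error 0.55; adjusted p = 0.00115, 0.00844, 0.027 and 0.317). Means in SC+ muscle were ordered day 1, day 3, day 5, day 7 and sham from high to low, and the order was the same in SC- muscle, but no neighbours in either order differed at an adjusted p under 0.05. Without SC- sham replicate 1 the rises in SC- muscle were 1.94, 1.83 and 0.84 at days 1, 3 and 5 and none passed (adjusted p = 0.128, 0.123 and 0.508). Without SC- sham replicate 2 they were 3.07 at day 5 and 3.00 at day 7, which then passed (adjusted p = 0.0063 and 0.00696), and day 7 also passed without SC- MOV day 7 replicate 2 (2.87, adjusted p = 0.0121). The day 7 value of *Il6* in SC- muscle was 0.77 without SC- sham replicate 1 (adjusted p = 0.545) and 0.89 without SC- MOV day 7 replicate 1 (adjusted p = 0.511). The day 5 rise in SC- muscle did not pass without SC- MOV day 5 replicate 1 (1.46, adjusted p = 0.274) or replicate 2 (2.45, adjusted p = 0.0537), nor with any 1 left out of the 6 arrays of SC- MOV day 3, SC+ MOV day 3 and SC+ MOV day 7, which share the estimate of the spread (adjusted p = 0.0525 to 0.0547), and the SC- day 7 value of *Il6* passed with any 1 left out of the 4 arrays of SC+ sham and SC+ MOV day 1 (adjusted p = 0.0365 to 0.0488). Fits with the array medians set equal, with repeated quantile normalization, with all rows, and with an intensity trend and robust prior also ended that day 5 call (adjusted p = 0.0501, 0.0606, 0.0955 and 0.13). In SC+ muscle the *Il6* rise was 1.54 at day 3 and 1.12 at day 5 without SC+ sham replicate 1 (adjusted p = 0.0765 and 0.22), and it ended without SC+ MOV day 3 replicate 1 (2.18, adjusted p = 0.0662) and without SC+ MOV day 5 replicate 1 (1.43, adjusted p = 0.194). The SC+ day 5 call of *Il6* ended with all rows, with the trend and robust prior, and with all 20 arrays in the fit (adjusted p = 0.0736, 0.0681 and 0.059). At day 7 it passed without SC+ sham replicate 2 (1.74, adjusted p = 0.0347) and was 0.06 without SC+ sham replicate 1 (adjusted p = 0.97). The day 1 rise in SC+ muscle passed whichever 1 array was left out.

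The 250 bases before the start of *Il6* and of *Lif* are shown because their ligands differ in how they moved, and because cytokine genes are textbook targets of AP-1, C/EBP and NF-kappaB. Capitals mark matches, on either strand, to TGACTCA (AP-1; TGAGTCA on the other strand), TTNNGCAA (C/EBP) and GGGANTTTC (a kappaB string), read 5′ to 3′ from RefSeq, GRCm38.p6.
*Il6*, chr5:30012864-30013113, plus strand: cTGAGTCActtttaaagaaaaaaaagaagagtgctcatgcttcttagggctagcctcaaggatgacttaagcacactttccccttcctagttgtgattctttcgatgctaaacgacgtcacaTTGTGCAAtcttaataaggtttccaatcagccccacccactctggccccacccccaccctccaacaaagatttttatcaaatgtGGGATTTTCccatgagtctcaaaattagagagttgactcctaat
*Lif*, chr11:4257318-4257567, plus strand: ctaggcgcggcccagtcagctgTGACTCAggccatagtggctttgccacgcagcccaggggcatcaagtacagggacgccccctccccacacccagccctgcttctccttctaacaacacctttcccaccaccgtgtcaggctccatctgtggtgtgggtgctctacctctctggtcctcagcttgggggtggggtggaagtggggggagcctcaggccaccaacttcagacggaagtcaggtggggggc
The *Il6* stretch held 1 match to each of the 3 strings and the *Lif* stretch held 1 match to the AP-1 string. The 250 bases read for *Il6ra*, *Lifr*, *Osmr*, *Il6st*, *Socs3* and *Stat3* held no match to any of them. The annotated genes of *Lifr*, *Osmr*, *Socs3* and *Stat3* reach further upstream than the starts used here. The windows of *Lifr* and *Osmr* lay wholly inside the annotated gene, so the bases before its far end were not read. Whether any of these strings bears on how a gene moved was not tested. Of 32851 promoters of the same length, 4.46% held the AP-1 string, 9.56% the C/EBP string and 0.941% the kappaB string. A match is a description of letters, and no binding was measured.

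*Lif*, the gene of leukemia inhibitory factor, a cytokine of overloaded muscle, differed between SC- and SC+ sham muscle. Its level in SC- muscle was 5.78 and 5.76 in sham, 6.51 and 6.75 at day 1, 6.77 and 6.88 at day 3, 6.26 and 6.81 at day 5, and 6.63 and 6.48 at day 7. In SC+ muscle it was 6.75 and 6.72 in sham, 6.86 and 6.80 at day 1, 7.40 and 7.02 at day 3, 6.72 and 6.17 at day 5, and 6.51 and 6.25 at day 7. In SC- muscle the MOV arrays lay above both sham arrays on all 4 days, whereas in SC+ muscle they lay above sham at days 1 and 3, overlapped it at day 5 and lay below it at day 7.

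The log2 fold changes of *Lif* in SC- muscle were 0.86, 1.05, 0.76 and 0.78 at days 1, 3, 5 and 7 (standard error 0.24), with adjusted p of 0.0227, 0.00379, 0.0252 and 0.0206 in limma. In SC+ muscle they were 0.10, 0.47, -0.29 and -0.36 (adjusted p = 0.849, 0.223, 0.478 and 0.384). The responses differed between SC- and SC+ muscle by 0.76, 0.58, 1.05 and 1.14 at the 4 days (unadjusted p = 0.0408, 0.113, 0.0071 and 0.00398), and none of these passed after adjustment (adjusted p = 0.986, 1, 0.57 and 0.339). The level of *Lif* in sham muscle itself was 0.96 lower on the log2 scale in SC- than in SC+ muscle, a difference of -0.96 (95% interval -1.48 to -0.45, unadjusted p = 0.000955, adjusted p = 0.668), while at the MOV days the differences lay between -0.39 and 0.18. The sham groups enter each response, so the difference of the responses carries that sham difference. Leaving out single arrays of the groups compared ended the *Lif* rise in SC- muscle at days 1, 5 and 7, with values of 0.74 to 0.98 at day 1 with any 1 of its 4 arrays left out (adjusted p = 0.0602 to 0.137), of 0.49 at day 5 without SC- MOV day 5 replicate 2 (adjusted p = 0.251), 0.77 without SC- sham replicate 1 (adjusted p = 0.0827) and 0.75 without SC- sham replicate 2 (adjusted p = 0.0843), and of 0.71 to 0.86 at day 7 with any 1 of its 4 arrays left out (adjusted p = 0.0509 to 0.124). The day 3 rise passed whichever 1 array was left out.

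**Figure D2:**
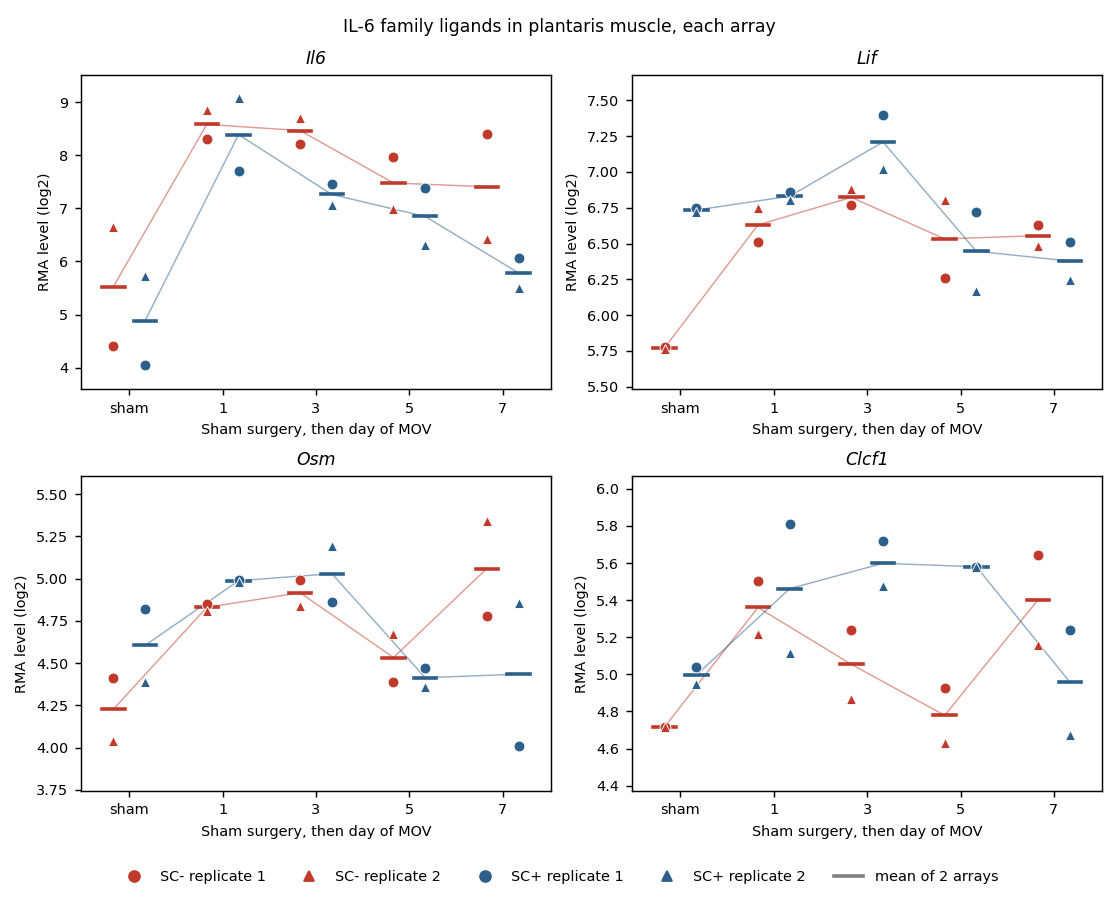
RMA level (log2) of *Il6*, *Lif*, *Osm* and *Clcf1* on each array after sham surgery and at days 1, 3, 5 and 7 of MOV, with SC- in red to the left of SC+ in blue, circles for replicate 1, triangles for replicate 2 and bars, joined by thin lines, for the mean of 2 arrays. The *Il6* arrays of days 1, 3 and 5 lie above their sham arrays, and the SC- sham arrays of *Lif*, at 5.78 and 5.76, lie below the SC+ sham arrays, at 6.75 and 6.72.

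*Osm*, which encodes oncostatin M of macrophages and neutrophils, and *Clcf1*, which encodes cardiotrophin-like cytokine factor 1, a ligand that acts through the CNTF receptor, were dim. Their 20 arrays lay between 4.01 and 5.34 and between 4.63 and 5.81, within the range of the 23 background probe sets on these arrays (2.68 to 7.45, median 5.34). All 20 arrays of *Lif*, the 4 sham arrays of *Il6* and all arrays of *Socs3* but SC- MOV day 1 replicate 1 (7.67) were within that range too. So were the *Il6* arrays at 6.98 (SC- day 5), 6.42 (SC- day 7), 7.06 (SC+ day 3), 7.38 and 6.32 (SC+ day 5), and 6.07 and 5.49 (SC+ day 7). For *Il6ra* these were 7.01 and 7.38 (SC- sham), 7.13 (SC+ sham), 7.11 (SC- day 1) and 7.42 (SC- day 7). In SC+ muscle under MOV they were 7.26 (day 1), 7.21 and 7.05 (day 5) and 7.39 (day 7). Differences at such levels can be compressed by background. *Osm* in SC- muscle was 4.41 and 4.04 in sham, 4.85 and 4.81 at day 1, 4.99 and 4.84 at day 3, 4.39 and 4.68 at day 5, and 4.78 and 5.34 at day 7. In SC+ muscle *Osm* was 4.82 and 4.39 in sham, 4.99 and 4.98 at day 1, 4.86 and 5.20 at day 3, 4.47 and 4.36 at day 5, and 4.01 and 4.86 at day 7. Both arrays at days 1, 3 and 7 lay above sham in SC- muscle and both at days 1 and 3 did in SC+ muscle.

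*Osm* passed the test at day 7 in SC- muscle, with a log2 fold change of 0.83 (adjusted p = 0.0312), and on no other day in SC- muscle or in SC+ muscle, where the values ran between -0.19 and 0.42. The day 7 value in SC- muscle was 0.55 without SC- MOV day 7 replicate 2 (adjusted p = 0.274) and 0.65 without SC- sham replicate 2 (adjusted p = 0.193), neither of which passed, and with repeated quantile normalization *Osm* also passed at day 3 (0.78, adjusted p = 0.042). The day 7 responses of *Osm* differed by 1.00 between SC- and SC+ muscle (unadjusted p = 0.0206, adjusted p = 0.445). *Clcf1* passed on no day. Its log2 fold changes were 0.64, 0.34, 0.06 and 0.69 in SC- muscle (adjusted p = 0.134, 0.443, 0.901 and 0.0681) and 0.47, 0.60, 0.58 and -0.04 in SC+ muscle (adjusted p = 0.301, 0.161, 0.175 and 0.951), and without SC- MOV day 7 replicate 2 the *Clcf1* value at day 7 in SC- muscle was 0.93 and passed (adjusted p = 0.0477), as it did with repeated quantile normalization (0.77, adjusted p = 0.0493) and with dim genes left out (adjusted p = 0.0459). No promoter sequence was used for either gene.

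Of the other IL-6 family ligands, *Il11*, *Ctf1*, *Ctf2*, *Il27* and *Ebi3*, a subunit shared by IL-27 and IL-35, were measured. In SC- muscle 0 of these 5 passed at days 1, 3 and 7, and at day 5 *Ebi3* passed with a log2 fold change of 0.62. Its mean levels of 3.73 at day 5 and 3.11 in sham were in the lower part of the background range, and it did not pass without SC- sham replicate 1 (adjusted p = 0.0771) or replicate 2 (adjusted p = 0.169). In SC+ muscle 0 of the 5 rose or fell at any day, with log2 fold changes between -0.54 (*Ctf1*, cardiotrophin-1, at day 3) and 0.26 (*Ctf2* at day 1). Genes of cytokines that induce *Il6* in many cells rose as well. *Il1b*, interleukin-1 beta, rose by 4.97, 4.76, 3.87 and 3.53 on the log2 scale at days 1, 3, 5 and 7 in SC- muscle and by 5.77, 3.71, 3.21 and 1.79 in SC+ muscle. *Tnf*, tumour necrosis factor, rose at days 1, 3 and 5, by 1.27, 2.30 and 1.59 in SC- muscle and by 1.96, 1.02 and 0.98 in SC+ muscle. *Il1a*, interleukin-1 alpha, rose at day 1 in SC+ muscle by 1.03 and did not pass in SC- muscle (0.62). The sham means of *Tnf* (4.06 in SC- and 4.20 in SC+ muscle) and of *Il1a* (5.01 and 4.73) were within the background range. Calls that ended without 1 sham array were those of *Tnf* at day 1 in SC- muscle (1.02, adjusted p = 0.126, without SC- sham replicate 2), and, without SC+ sham replicate 1, of *Tnf* at days 3 and 5 (0.80 and 0.76, adjusted p = 0.169 and 0.211) and of *Il1b* at day 7 (1.29, adjusted p = 0.171) in SC+ muscle.

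Among the receptor chains, *Lifr*, which encodes the LIF receptor chain that LIF and CLCF1 signalling need, fell on all 4 days. SC- muscle had levels of 10.78 and 10.97 in sham, 8.61 and 9.45 at day 1, 9.61 and 10.09 at day 3, 9.67 and 9.02 at day 5, and 8.99 and 9.16 at day 7. SC+ muscle had levels of 10.96 and 10.95 in sham, 9.16 and 8.46 at day 1, 9.96 and 9.63 at day 3, 9.48 and 9.28 at day 5, and 8.96 and 9.0 at day 7. The 8 MOV arrays lay below both sham arrays in SC- and in SC+ muscle, and day 3 was nearest to sham in both.

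The log2 fold changes of *Lifr* were -1.84, -1.02, -1.53 and -1.80 in SC- muscle (standard error 0.30), with adjusted p of 0.000358, 0.0191, 0.000677 and 0.000128 in limma. In SC+ muscle they were -2.15, -1.16, -1.58 and -1.98 (standard error 0.26; adjusted p = 0.000182, 0.00616, 0.00146 and 0.000488), so the day 1 level was 0.279 of sham in SC- and 0.226 of sham in SC+ muscle. From high to low the order was sham, day 3, day 5, day 7 and day 1 in SC- and in SC+ muscle. Sham differed from day 3 in both (adjusted p = 0.0191 in SC- and 0.00616 in SC+), and no 2 MOV days next to each other in that order did. Days 3 and 1, which stand at the ends of the MOV order, differed by 0.99 in SC+ muscle (adjusted p = 0.0406) and by 0.82 in SC- muscle (adjusted p = 0.123). The falls at days 1, 5 and 7 passed whichever 1 array was left out. The day 3 fall of *Lifr* in SC- muscle did not pass without SC- MOV day 3 replicate 1 (-0.79, adjusted p = 0.2), SC- sham replicate 1 (-1.12, adjusted p = 0.0509) or SC- sham replicate 2 (-0.93, adjusted p = 0.101), and that in SC+ muscle did not pass without SC+ MOV day 3 replicate 2 (adjusted p = 0.0733).

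*Osmr*, which encodes the chain that pairs with gp130 for oncostatin M, moved in the opposite direction. The SC- arrays read 8.16 and 8.01 in sham, 9.53 and 9.39 at day 1, 8.99 and 9.23 at day 3, 9.27 and 9.03 at day 5, and 9.23 and 8.65 at day 7. The SC+ arrays read 7.83 and 8.02 in sham, 9.36 and 9.71 at day 1, 9.10 and 9.46 at day 3, 9.18 and 8.78 at day 5, and 8.79 and 8.16 at day 7. The MOV arrays of all 4 days lay above both sham arrays in SC- and in SC+ muscle, with SC+ MOV day 7 replicate 2 nearest to sham.

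*Osmr* rose by 1.38, 1.02, 1.07 and 0.86 on the log2 scale in SC- muscle at days 1, 3, 5 and 7 (standard error 0.27), with adjusted p of 0.00166, 0.00921, 0.00504 and 0.0209 in limma. In SC+ muscle the values were 1.60, 1.35, 1.05 and 0.55 (standard error 0.28; adjusted p = 0.0019, 0.00374, 0.0195 and 0.213), so day 7 did not pass. Repeating the quantile normalization ended the day 7 rise in SC- muscle (0.65, adjusted p = 0.0808) and the day 5 rise in SC+ muscle (0.84, adjusted p = 0.0531). In SC- muscle the *Osmr* rise did not pass at day 3 without SC- MOV day 3 replicate 2 (0.90, adjusted p = 0.076) or SC- sham replicate 2 (0.94, adjusted p = 0.0588), nor at day 7 without SC- MOV day 7 replicate 1 (0.57, adjusted p = 0.249), SC- sham replicate 1 (0.94, adjusted p = 0.0504) or SC- sham replicate 2 (0.78, adjusted p = 0.103). In SC+ muscle it did not pass at day 3 without SC+ MOV day 3 replicate 2 (1.17, adjusted p = 0.0511), nor at day 5 without SC+ MOV day 5 replicate 1 (0.85, adjusted p = 0.133) or SC+ sham replicate 1 (0.95, adjusted p = 0.103).

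*Il6ra*, which encodes the chain that binds IL-6 itself, rose at day 3. In SC- muscle the arrays gave 7.01 and 7.38 in sham, 7.11 and 7.83 at day 1, 8.62 and 7.99 at day 3, 8.08 and 7.59 at day 5, and 7.81 and 7.42 at day 7. In SC+ muscle they gave 7.49 and 7.13 in sham, 7.68 and 7.26 at day 1, 8.12 and 8.10 at day 3, 7.21 and 7.05 at day 5, and 7.56 and 7.39 at day 7. Day 3 had the highest mean in SC- and in SC+ muscle, and its arrays lay above sham in both, while the SC+ arrays of the other days overlapped sham.

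At day 3 the log2 fold change of *Il6ra* was 1.11 in SC- muscle (adjusted p = 0.00881 in limma) and 0.80 in SC+ muscle (adjusted p = 0.0286), and no other day passed. Day 3 did not differ from the day next to it in the order at an adjusted p under 0.05 in SC- or SC+ muscle. The SC+ value of *Il6ra* did not pass under 3 other settings, namely repeated quantile normalization (0.67, adjusted p = 0.0698), all rows of the table in the fit (adjusted p = 0.0504) and all 20 arrays in the fit (adjusted p = 0.0564), nor without SC+ MOV day 3 replicate 1 (0.79, adjusted p = 0.114), SC+ MOV day 3 replicate 2 (0.81, adjusted p = 0.123) or SC+ sham replicate 2 (0.62, adjusted p = 0.152). The SC- value of *Il6ra* did not pass without SC- MOV day 3 replicate 1 (0.80, adjusted p = 0.155) or SC- sham replicate 1 (0.92, adjusted p = 0.0918).

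*Il6st*, the gene of gp130, the chain shared by the whole family, passed the test on no day. In SC- muscle it was measured at 13.80 and 14.07 in sham, 13.95 and 14.20 at day 1, 14.54 and 14.27 at day 3, 14.51 and 14.52 at day 5, and 14.58 and 14.30 at day 7. SC+ arrays stood at 13.27 and 14.18 in sham, 14.06 and 13.99 at day 1, 13.82 and 13.83 at day 3, 13.98 and 14.24 at day 5, and 14.12 and 14.12 at day 7. The SC+ groups overlapped sham on all 4 days, and in SC- muscle the arrays of days 3, 5 and 7 lay above sham.

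The log2 fold changes of *Il6st* were 0.14, 0.47, 0.58 and 0.51 in SC- muscle (adjusted p = 0.8, 0.228, 0.109 and 0.164) and 0.30, 0.10, 0.39 and 0.39 in SC+ muscle (adjusted p = 0.531, 0.864, 0.382 and 0.391). The 95% interval at day 1 ran from -0.40 to 0.68 in SC- and from -0.30 to 0.91 in SC+ muscle, so a rise or fall of *Il6st* within those limits could have been missed. Without SC+ sham replicate 1 the SC+ values were -0.15, -0.36, -0.06 and -0.06 at days 1, 3, 5 and 7 (adjusted p = 0.797, 0.469, 0.922 and 0.938). With SC+ sham replicate 2 left out, *Il6st* passed at days 5 and 7 in SC+ muscle (0.84 at both, adjusted p = 0.0401 and 0.041), and with the quantile normalization repeated it passed at day 5 in SC- muscle (0.78, adjusted p = 0.0281).

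**Figure D3:**
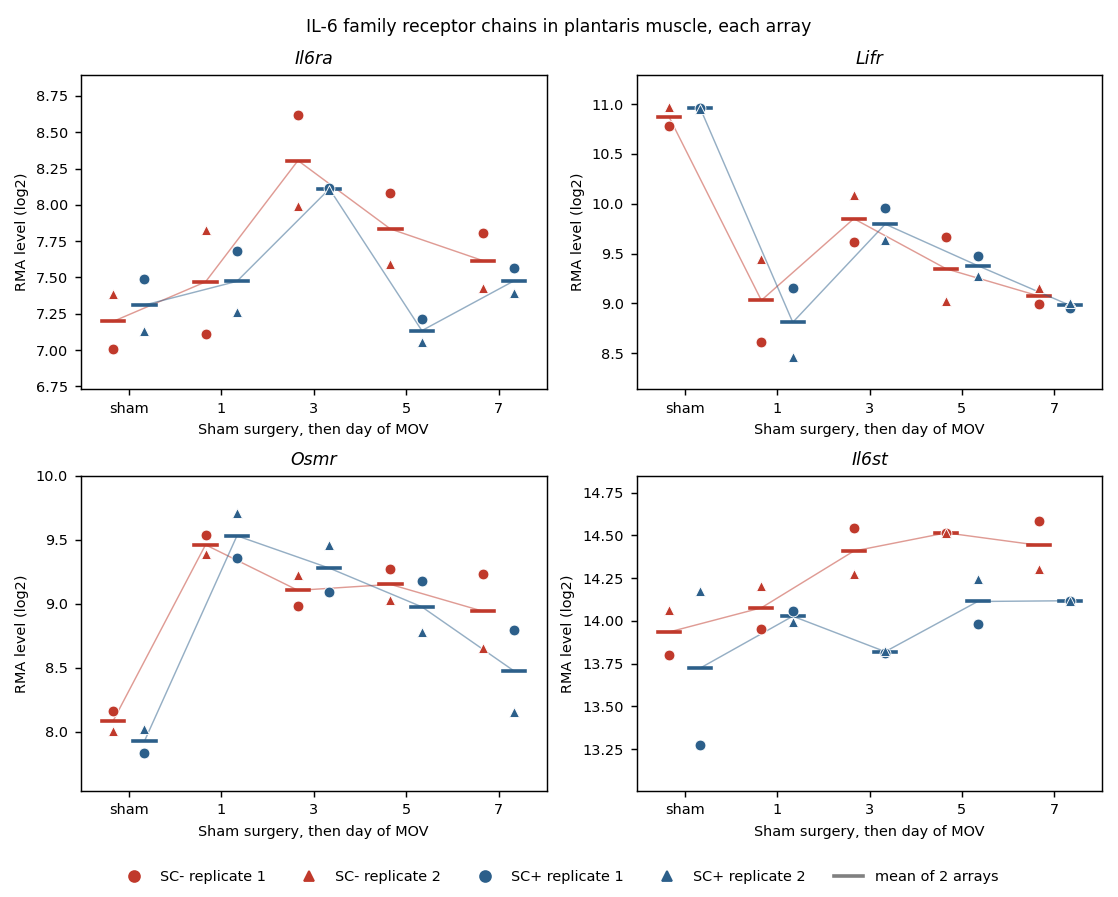
RMA level (log2) of the receptor chains *Il6ra*, *Lifr*, *Osmr* and *Il6st* on each array after sham surgery and at days 1, 3, 5 and 7 of MOV, with SC- in red to the left of SC+ in blue, circles for replicate 1, triangles for replicate 2 and bars, joined by thin lines, for the mean of 2 arrays. *Lifr* lies below sham and *Osmr* above sham on all 4 days, *Il6ra* is highest at day 3, and each panel has its own axis range.

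Of the other receptor chains of the family, *Cntfr*, the chain that binds CNTF and CLCF1, fell at days 3, 5 and 7, with log2 fold changes of -1.22, -1.31 and -1.32 in SC- muscle and -1.23, -1.41 and -1.03 in SC+ muscle. At day 1 it stood at -0.20 in SC- muscle and -0.07 in SC+ muscle and did not pass. *Il27ra* and *Il31ra* passed on no day in either. The shedding proteases *Adam10* and *Adam17*, which release membrane proteins including the IL-6 receptor, rose in SC+ muscle on all 4 days, *Adam10* by 1.03, 1.95, 1.70 and 1.31 and *Adam17* by 0.94, 1.61, 1.39 and 1.30. In SC- muscle *Adam10* rose by 0.91, 1.61, 2.34 and 1.93, and *Adam17* rose by 1.27, 1.88 and 1.75 at days 3, 5 and 7 and did not pass at day 1 (0.63). Without SC+ sham replicate 1, the SC+ calls of *Cntfr* at days 3 and 7 (-0.95 and -0.76, adjusted p = 0.0585 and 0.16) and of *Adam10* at days 1 and 7 (0.50 and 0.78, adjusted p = 0.314 and 0.115) ended. The day 1 calls of *Adam17* in SC+ muscle (adjusted p = 0.111 and 0.0665) and of *Adam10* in SC- muscle (adjusted p = 0.289 and 0.0548) ended without replicate 1 and without replicate 2 of their sham group.

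*Stat3* itself, the transcription factor that these receptors activate, rose in SC- and in SC+ muscle. *Stat3* in SC- muscle was at 9.11 and 10.77 in sham, 11.90 and 11.98 at day 1, 11.51 and 11.50 at day 3, 11.11 and 11.12 at day 5, and 11.08 and 10.52 at day 7. *Stat3* in SC+ muscle was at 8.97 and 10.35 in sham, 11.47 and 11.88 at day 1, 11.42 and 11.44 at day 3, 11.13 and 11.11 at day 5, and 10.58 and 10.40 at day 7. The spread was mainly in sham, where replicate 2 was above replicate 1 by more than 1 log2 unit in SC- and in SC+ muscle. The MOV arrays lay above both sham arrays at days 1, 3 and 5 in both, and at day 7 in SC+ muscle.

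The log2 fold changes of *Stat3* were 2.00, 1.57, 1.18 and 0.86 at days 1, 3, 5 and 7 in SC- muscle (standard error 0.42), with adjusted p of 0.00308, 0.0107, 0.0441 and 0.145 in limma. In SC+ muscle they were 2.01, 1.77, 1.46 and 0.83 (standard error 0.36; adjusted p = 0.00241, 0.00362, 0.0139 and 0.142), and the means ran down from day 1 through day 3, day 5 and day 7 to sham in both. No neighbours in either order differed at an adjusted p under 0.05. Without SC- sham replicate 1 the values in SC- muscle were 1.17, 0.74 and 0.35 at days 1, 3 and 5 and none passed (adjusted p = 0.0774, 0.262 and 0.623). Without SC- sham replicate 2 they were 2.39 at day 3, 2.01 at day 5 and 1.69 at day 7, and all 3 passed (adjusted p = 0.000484, 0.00128 and 0.00433). In SC+ muscle *Stat3* was 1.32 at day 1 and 1.08 at day 3 without SC+ sham replicate 1, and both still passed (adjusted p = 0.00856 and 0.0209), while day 5 did not (0.77, adjusted p = 0.109). At day 7 in SC+ muscle *Stat3* passed without SC+ sham replicate 2 (1.52, adjusted p = 0.0018) and was 0.14 without SC+ sham replicate 1 (adjusted p = 0.838), and in SC- muscle it was 0.03 at day 7 without SC- sham replicate 1 (adjusted p = 0.97). In SC- muscle *Stat3* also did not pass at day 3 without SC- MOV day 3 replicate 1 (adjusted p = 0.0651) or replicate 2 (adjusted p = 0.0509), nor at day 5 without either SC- MOV day 5 array (adjusted p = 0.134 and 0.136) or with any 1 left out of the 8 arrays of SC- MOV day 3 and SC+ MOV days 3, 5 and 7 (adjusted p = 0.0526 to 0.0544). The SC- day 5 value of *Stat3* also missed with the array medians set equal (adjusted p = 0.0532) and with all rows (adjusted p = 0.084). In SC+ muscle the day 5 value did not pass without SC+ MOV day 5 replicate 1 (1.45, adjusted p = 0.0639) or replicate 2 (1.47, adjusted p = 0.0803).

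*Socs3*, whose protein binds gp130 and JAK kinases and shuts the signal down, rose early. Its level in SC- muscle was 5.77 and 5.39 in sham, 7.67 and 6.85 at day 1, 6.08 and 6.23 at day 3, 6.86 and 5.31 at day 5, and 5.90 and 5.21 at day 7. In SC+ muscle it was 5.27 and 5.33 in sham, 6.46 and 6.71 at day 1, 6.34 and 6.18 at day 3, 6.45 and 5.46 at day 5, and 5.53 and 5.69 at day 7. The highest mean was at day 1 in SC- and in SC+ muscle. The MOV arrays lay above sham at days 1 and 3 in SC- muscle and on all 4 days in SC+ muscle.

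The log2 fold change of *Socs3* at day 1 was 1.69 in SC- muscle (adjusted p = 0.00843 in limma) and 1.29 in SC+ muscle (adjusted p = 0.00989). At day 3 it was 0.58 in SC- muscle (adjusted p = 0.376) and 0.96 in SC+ muscle (adjusted p = 0.036). At days 5 and 7 it was 0.51 and -0.02 in SC- muscle and 0.65 and 0.31 in SC+ muscle, and no value passed. In SC- muscle the day 1 rise of *Socs3* did not pass without SC- MOV day 1 replicate 1 (1.28, adjusted p = 0.131) or SC- sham replicate 2 (1.50, adjusted p = 0.072), and in SC+ muscle it did not pass without SC+ MOV day 1 replicate 2 (1.16, adjusted p = 0.07). The SC+ day 3 rise passed in neither of 2 other fits (all rows, adjusted p = 0.0737, and all 20 arrays, adjusted p = 0.114), nor with any 1 left out of the 6 arrays of SC+ sham, SC+ MOV day 3 and SC+ MOV day 7 (0.88 to 1.03, adjusted p = 0.0517 to 0.164). At day 5 *Socs3* passed without SC- MOV day 5 replicate 2 (1.29, adjusted p = 0.0284) and, in SC+ muscle, without SC+ MOV day 5 replicate 2 (1.15, adjusted p = 0.0269).

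**Figure D4:**
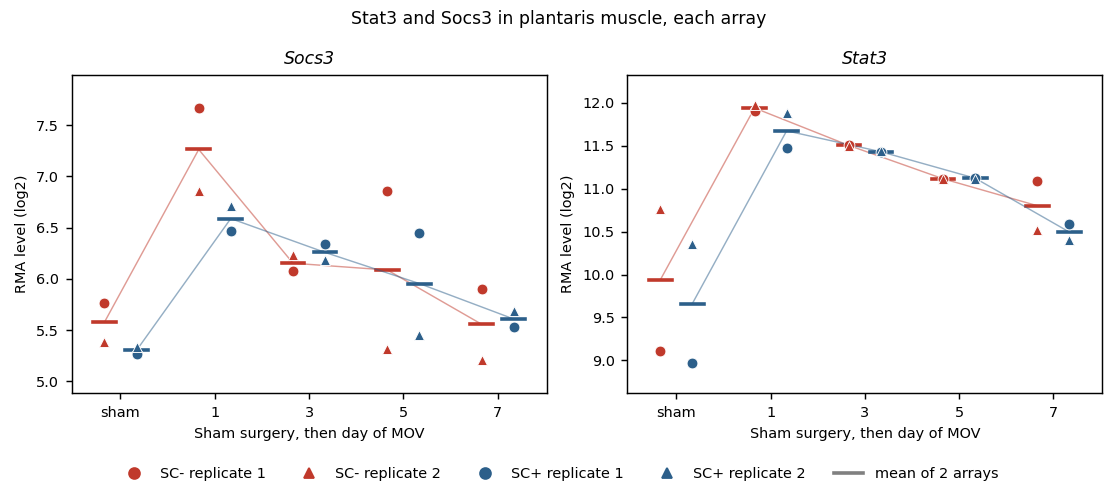
RMA level (log2) of *Socs3* and *Stat3* on each array after sham surgery and at days 1, 3, 5 and 7 of MOV, with SC- in red to the left of SC+ in blue, circles for replicate 1, triangles for replicate 2 and bars, joined by thin lines, for the mean of 2 arrays. *Stat3* is highest at day 1 and its sham arrays are far apart (9.11 and 10.77 in SC-, 8.97 and 10.35 in SC+), and *Socs3* is highest at day 1.

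A 30-base stretch before the start of *Socs3* is shown because it holds the string that STAT proteins bind, TTCNNNGAA, in capitals (RefSeq, GRCm38.p6, 5′ to 3′). The annotated gene reaches further upstream than this start.
*Socs3*, chr11:117969501-117969530, minus strand: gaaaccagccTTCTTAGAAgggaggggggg
The string was found once in the 250 bases before the start of *Socs3*, at -154 to -146, and in no other of the 9 windows read for the 8 members with a promoter sequence (*Lifr* had 2). It was present in 7.02% of 32851 promoters of that length.

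Of 15 other genes listed as STAT3 targets, 12, 7, 6 and 5 rose at days 1, 3, 5 and 7 in SC- muscle, and 0, 0, 1 and 2 fell. In SC+ muscle 11, 8, 7 and 5 rose and 0, 0, 2 and 2 fell. The median of the list was 1.60, 1.07, 0.59 and 0.17 in SC- muscle and 1.92, 1.30, 0.56 and 0.61 in SC+ muscle, to be read beside the medians and shares of all genes given above. Without SC- sham replicate 1, 6, 4, 5 and 3 of the 15 rose in SC- muscle, and without SC- sham replicate 2 it was 9, 8, 6 and 4. Without SC+ sham replicate 1, 10, 9, 4 and 3 rose in SC+ muscle, and without SC+ sham replicate 2 it was 11, 8, 8 and 7. The list holds genes that many other factors also induce, and STAT3 activity was not measured.

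*Myc*, the growth transcription factor, rose by 4.98, 3.49, 3.47 and 2.42 in SC- muscle and by 5.31, 3.70, 2.65 and 1.71 in SC+ muscle at days 1, 3, 5 and 7. *Pim1*, a serine/threonine kinase, rose by 3.60, 2.35, 1.30 and 0.91 in SC- muscle and by 3.24, 1.44, 0.86 and 0.73 in SC+ muscle. *Timp1*, an inhibitor of matrix proteases, rose by 5.02, 6.73, 6.64 and 6.04 in SC- muscle and by 5.06, 7.41, 6.83 and 4.85 in SC+ muscle. *Lcn2* rose at day 1, by 6.18 in SC- muscle and by 7.26 in SC+ muscle, and passed on no later day. These values of *Lcn2* rest on sham arrays that differ by several log2 units. Without sham replicate 1 the day 1 value was 3.31 in SC- muscle and did not pass (adjusted p = 0.221), and 4.14 in SC+ muscle (adjusted p = 6.5e-05), while without sham replicate 2 it was 9.04 in SC- and 10.37 in SC+ muscle. The later days of *Lcn2* also depended on which sham array was used, with day 7 at -6.13 in SC- muscle and -5.28 in SC+ muscle without sham replicate 1 (adjusted p = 0.00713 and 5.66e-05). *Timp1* in SC+ muscle had sham levels of 5.01 and 9.07, and its rises without SC+ sham replicate 1 were 3.03, 5.38, 4.80 and 2.82 at days 1, 3, 5 and 7. The day 7 calls of *Myc* and *Pim1* ended without sham replicate 1 in SC- muscle (1.67 and 0.82, adjusted p = 0.0631 and 0.131) and in SC+ muscle (1.14 and 0.58, adjusted p = 0.104 and 0.243). *Pim1* also missed at day 5 in SC+ muscle when SC+ sham replicate 1 was dropped (0.71, adjusted p = 0.137), and at day 7 in SC- muscle when SC- sham replicate 2 was dropped (1.01, adjusted p = 0.058). The genes that fell, named here after their values were seen, were *Vegfa* at days 5 and 7 (-1.93 and -2.45 in SC- muscle, -1.82 and -1.91 in SC+ muscle), *Cebpb* at day 7 in SC- muscle (-0.77), and *Lrg1* at days 5 and 7 in SC+ muscle (-0.93 and -1.06). Of these calls, those of *Vegfa* in SC+ muscle ended without SC+ sham replicate 1 (adjusted p = 0.131 and 0.111), and those of *Lrg1* without SC+ sham replicate 2 (adjusted p = 0.123 and 0.0695). *Cebpb* missed when SC- sham replicate 2 was dropped (adjusted p = 0.315).

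**Figure D5:**
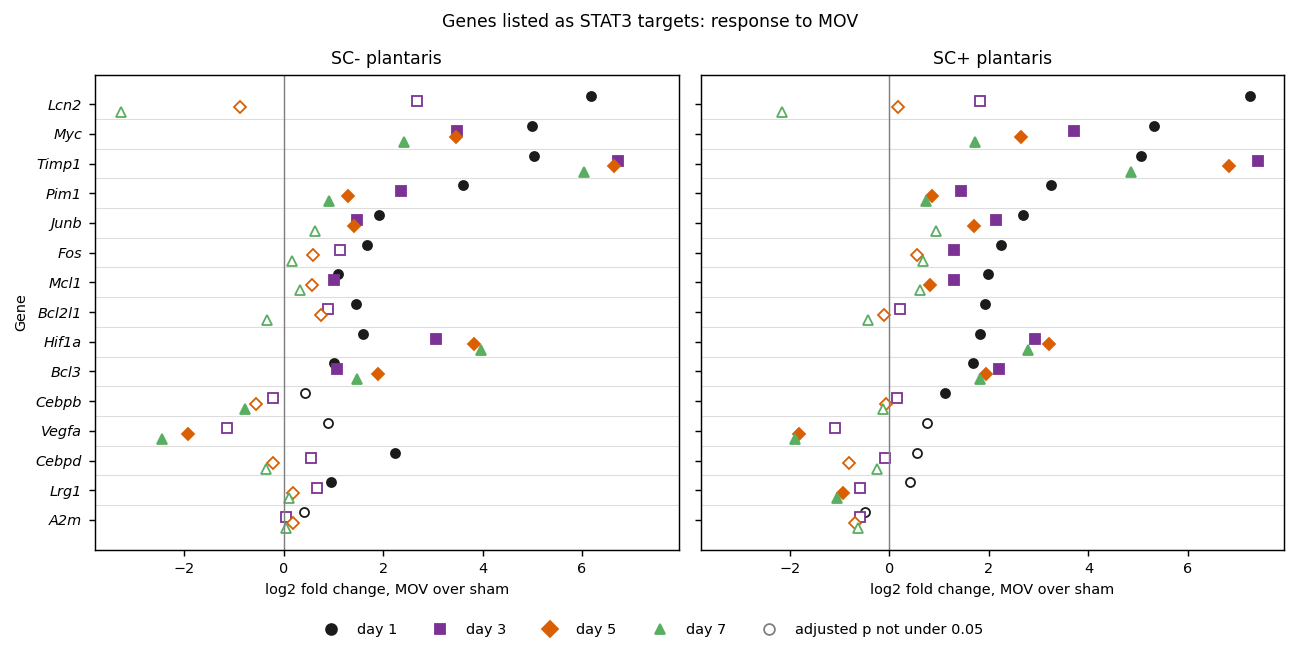
Log2 fold change, MOV over sham, of the 15 measured genes listed as STAT3 targets, in SC- (left) and SC+ (right) plantaris muscle, with 1 marker per day and open markers where the adjusted p was not under 0.05. *Lcn2*, *Myc*, *Timp1* and *Pim1* have the largest values at day 1, and *Vegfa* lies left of 0 at days 5 and 7.

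The JAK kinases and the other STATs moved unevenly. *Tyk2* rose by 0.91, 1.27, 1.71 and 1.09 on the 4 days in SC- muscle and, in SC+ muscle, by 0.99, 0.79 and 0.88 at days 3, 5 and 7. *Jak2* fell at day 1 in SC- muscle and at day 7 in SC+ muscle (-0.87 both), and *Jak1* passed on no day. *Stat5b*, which growth hormone and other cytokines activate, fell on all 4 days, with log2 fold changes of -1.29, -2.06, -2.48 and -2.35 in SC- muscle and -0.79, -1.74, -1.54 and -1.50 in SC+ muscle. *Stat5a* fell at days 3, 5 and 7 in SC- muscle (-1.28, -1.65 and -1.41) and at days 3 and 7 in SC+ muscle (-1.04 and -0.98). *Stat2*, a transducer of interferon signals, rose by 1.29 at day 5 in SC- muscle and by 1.87, 1.98, 1.41 and 1.28 on the 4 days in SC+ muscle. *Stat6*, which interleukin-4 activates, rose by 1.73, 1.97 and 2.07 at days 3, 5 and 7 in SC- muscle and by 1.32 and 1.57 at days 1 and 3 in SC+ muscle. *Stat4* rose at day 7 in SC- muscle (1.41) and at day 5 in SC+ muscle (1.11). Several of these calls ended without 1 sham array of the same muscle. With either sham array left out these were *Tyk2* at days 5 and 7, *Stat5b* at day 1 and *Stat4* at day 5 in SC+ muscle (adjusted p = 0.0609 to 0.154) and *Stat2* at day 5 in SC- muscle (adjusted p = 0.15 and 0.0615). Without SC+ sham replicate 1 they were also *Stat6* at days 1 and 3, *Stat2* at days 5 and 7 and *Stat5a* at days 3 and 7, without SC+ sham replicate 2 *Jak2* at day 7, and without SC- sham replicate 2 *Tyk2*, *Jak2* and *Stat5b* at day 1.

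Of 11 other SOCS family members and negative regulators, 2, 3, 1 and 3 rose and 1, 2, 2 and 2 fell at days 1, 3, 5 and 7 in SC- muscle, and 3, 2, 2 and 3 rose and 0 fell in SC+ muscle. The median of the list was 0.26, -0.06, 0.35 and 0.04 in SC- muscle and 0.18, 0.20, 0.28 and 0.15 in SC+ muscle, and these counts and medians are to be read beside the shares and medians of all genes given above. Without sham replicate 1 of the same muscle 1, 1, 1 and 1 rose in SC- muscle and 1, 2, 1 and 1 in SC+ muscle, and without replicate 2 it was 2, 3, 2 and 4 in SC- muscle and 3, 3, 4 and 5 in SC+ muscle. *Ptpn2*, a phosphatase of JAK and STAT proteins, rose by 2.68 and 1.23 at days 1 and 3 in SC- muscle and by 2.92, 1.99, 1.38 and 1.16 on the 4 days in SC+ muscle. *Ptpn6* (SHP-1), a phosphatase of blood cells, rose by 2.60, 2.90 and 2.80 at days 3, 5 and 7 in SC- muscle and by 1.95, 2.85 and 1.49 at days 1, 3 and 5 in SC+ muscle. *Socs2*, an inhibitor of growth hormone signalling, fell at day 3 in SC- muscle (-1.07) and rose at day 7 in SC+ muscle (1.02). *Pias3*, named for its binding to STAT3, rose at day 7 in both (1.14 in SC- and 1.04 in SC+). Calls that ended without sham replicate 1 were *Ptpn2* and *Socs2* at day 3 and *Pias3* at day 7 in SC- muscle (adjusted p = 0.112, 0.239 and 0.103), and *Ptpn6* at days 1 and 5 (adjusted p = 0.053 and 0.222) and *Socs2* and *Pias3* at day 7 (adjusted p = 0.191 and 0.167) in SC+ muscle.

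Marker genes of several cell types moved over the same days. Of 7 myoblast and regenerating fibre genes 1, 1, 1 and 4 rose at days 1, 3, 5 and 7 in SC- muscle. In SC+ muscle 1, 2, 2 and 4 of them rose, and 3 fell at day 1. The median log2 fold change of that list at day 7 was 1.56 in SC- and 2.84 in SC+ muscle. Of 8 satellite cell genes 2, 2, 2 and 1 rose in SC- muscle and 1, 1, 2 and 3 in SC+ muscle. In SC- muscle 1, 1, 1 and 1 of these fell, and in SC+ muscle 1, 1, 1 and 0. Of 13 macrophage genes 6, 13, 12 and 12 rose at days 1, 3, 5 and 7 in SC- muscle, with medians of the list between 7.65 and 7.86 in sham and between 9.98 and 13.07 under MOV. In SC+ muscle 5, 12, 12 and 11 rose and 1 fell, at day 1, with medians between 7.28 and 8.81 in sham and between 9.56 and 13.10 under MOV. Of 8 neutrophil genes 5, 5, 5 and 4 rose in SC- muscle and 5, 5, 4 and 1 in SC+ muscle, and of 8 fibroblast genes 0, 1, 6 and 7 rose in SC- muscle and 0, 3, 6 and 7 in SC+ muscle. At day 1, 1 fibroblast gene fell in SC- muscle and 7 fell in SC+ muscle. Of 12 myofibre genes 0 rose, while 1, 4, 6 and 4 fell in SC- muscle and 2, 4, 3 and 2 in SC+ muscle. Of 7 endothelial genes 0, 0, 3 and 3 rose and 2, 1, 0 and 1 fell in SC- muscle. In SC+ muscle 0 endothelial genes rose and 2, 3, 1 and 0 fell. Of 7 T and B lymphocyte genes 0, 0, 1 and 1 rose in SC- muscle, and in SC+ muscle 0 rose and 0, 1, 1 and 0 fell. In whole muscle a change in the number of cells that express a gene and a change in its RNA per cell cannot be told apart, and the part of these cells in the changes of *Il6*, *Osmr*, *Lifr*, *Stat3* and the other members was not tested.

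Compared directly, SC- and SC+ muscle differed in few of the 10 genes. At an unadjusted p under 0.05, 1 member differed in sham (5.58% of all genes), 0 at day 1 (5.99%), 1 at day 3 (5.46%), 2 at day 5 (9.2%) and 2 at day 7 (12.1%). With all time points in 1 comparison 2 members differed (8.71%), and 0 members passed an adjusted p under 0.05 in any of these. For the difference between the 2 responses the counts were 1, 0, 1 and 2 at days 1, 3, 5 and 7, against 4.93%, 4.2%, 7.8% and 9.28% of all genes, and again 0 passed after adjustment (limma; 0 of the 19505 genes did).

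*Il6* stood higher in SC- than in SC+ muscle over all time points, by 0.86 on the log2 scale (95% interval 0.22 to 1.50, unadjusted p = 0.0109, adjusted p = 0.415). By time point the difference of *Il6* was 0.64, 0.19, 1.20, 0.63 and 1.62 in sham and at days 1, 3, 5 and 7, and of these the value at day 7 passed (unadjusted p = 0.033, adjusted p = 0.352, limma). The arrays did not overlap at days 3 and 7, where both SC- arrays were above both SC+ arrays, and overlapped at the other time points. With 2 arrays per group, this and the other separations of arrays in this report only describe the values. Their share over all genes is not given, so no weight is put on them. The day 7 value rested on single arrays. It was 0.64 without SC- MOV day 7 replicate 1 (unadjusted p = 0.432), 2.61 without SC- MOV day 7 replicate 2 (unadjusted p = 0.00418) and 1.33 without SC+ MOV day 7 replicate 2 (unadjusted p = 0.148), and it missed with all rows (unadjusted p = 0.056) and with the trend and robust prior (unadjusted p = 0.0896). In sham, *Il6* differed by 1.76 without SC- sham replicate 1 (unadjusted p = 0.033). At day 7, of 13 macrophage genes 3 were higher and 0 lower in SC- than in SC+ muscle, and of 8 neutrophil genes 4 were higher and 1 lower, at an unadjusted p under 0.05. Over all genes 12.1% passed that rule at day 7, in either direction. By the same rule 5 of 7 myoblast genes, 4 of 8 satellite cell genes and 1 of 8 fibroblast genes were lower, and 2 of 7 endothelial genes were higher. The part of any of these cells in the *Il6* difference was not tested.

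*Il6st* also stood higher in SC- than in SC+ muscle over all time points (0.31, 95% interval 0.08 to 0.55, unadjusted p = 0.0104, adjusted p = 0.415), with 0.59 at day 3 (unadjusted p = 0.0352, adjusted p = 0.88). The SC- arrays of *Il6st* lay above the SC+ arrays at days 3, 5 and 7. The day 3 value did not pass with the quantile normalization repeated (0.53, unadjusted p = 0.0525), without SC- MOV day 3 replicate 1 (0.45, unadjusted p = 0.176), or without SC+ MOV day 3 replicate 1 (0.58, unadjusted p = 0.0932) or replicate 2 (0.59, unadjusted p = 0.0881). Without SC+ sham replicate 2 the sham difference of *Il6st* was 0.66 (unadjusted p = 0.0234).

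At day 5 *Il6ra* was higher in SC- than in SC+ muscle (0.70, unadjusted p = 0.0262, adjusted p = 0.458) and *Clcf1* was lower (-0.80, unadjusted p = 0.00841, adjusted p = 0.346). The arrays of the 2 groups overlapped for neither gene. *Il6ra* was at 0.46 without SC- MOV day 5 replicate 1 (unadjusted p = 0.208) and at 0.62 without SC+ MOV day 5 replicate 2 (unadjusted p = 0.107), and *Clcf1* was at -0.65 without SC- MOV day 5 replicate 2 (unadjusted p = 0.067). At day 5, of 13 macrophage genes 5 were higher and 0 lower in SC- than in SC+ muscle at an unadjusted p under 0.05, and 4 of 7 endothelial genes were higher, while 5 of 12 myofibre genes, 5 of 7 myoblast genes and 3 of 8 satellite cell genes were lower. Over all genes 9.2% passed that threshold at day 5, in either direction. The part of any of these cells in the differences of *Il6ra* and *Clcf1* was not tested. At day 7 *Osm* was higher in SC- muscle (0.62, unadjusted p = 0.0382, adjusted p = 0.375), but its arrays overlapped. That *Osm* value was 0.34 without SC- MOV day 7 replicate 2 (unadjusted p = 0.316), 0.20 without SC+ MOV day 7 replicate 1 (unadjusted p = 0.518) and 1.05 without SC+ MOV day 7 replicate 2 (unadjusted p = 0.00321).

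*Osmr* differed at day 7 by 0.47 (unadjusted p = 0.0979), and by 0.76 without SC- MOV day 7 replicate 2 and 0.79 without SC+ MOV day 7 replicate 1 (unadjusted p = 0.0281 and 0.0217). For the members with the largest responses, the interval of the difference between SC- and SC+ muscle was wide. For the difference between the responses at day 1 it was -2.54 to 1.64 for *Il6* and -1.26 to 1.24 for *Stat3*. It was -0.82 to 1.62 for *Socs3*, -0.59 to 1.20 for *Lifr* and -1.02 to 0.57 for *Osmr*. For the levels at day 1 it was -1.29 to 1.67 for *Il6*, around a difference of 0.19. It was -0.62 to 1.15 for *Stat3*, -0.19 to 1.53 for *Socs3*, -0.41 to 0.85 for *Lifr* and -0.63 to 0.49 for *Osmr*, around differences of 0.27, 0.67, 0.22 and -0.07. The difference of *Socs3* passed at day 1 without SC- MOV day 1 replicate 2 (1.08, unadjusted p = 0.0386) and at day 5 without SC- MOV day 5 replicate 2 (0.91, unadjusted p = 0.0372). Without SC- sham replicate 1 or SC+ sham replicate 2 the sham difference of *Stat3* was 1.11 and 0.97 (unadjusted p = 0.0132 and 0.0413).

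The order of the mean levels from high to low was day 3, day 1, day 7, day 5 and sham for *Lif* in SC- muscle, and day 3, day 1, sham, day 5 and day 7 in SC+ muscle. *Osmr* ran from day 1 through day 5, day 3 and day 7 to sham in SC- muscle, and from day 1 through day 3, day 5 and day 7 to sham in SC+ muscle. *Socs3* was highest at day 1, then at days 3 and 5, in both, with sham above day 7 in SC- muscle and below it in SC+ muscle. *Il6st* had sham lowest in both, with day 5 highest in SC- and day 7 highest in SC+ muscle. For *Osm* the highest mean was at day 7 in SC- and day 3 in SC+ muscle, and for *Clcf1* likewise. Of all neighbours in these orders, the 4 pairs that differed at an adjusted p under 0.05 were *Lif* at day 5 against sham and *Osmr* at day 7 against sham in SC- muscle, and *Lifr* at day 3 against sham in both.

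Over the 20 arrays, and as a description across groups that share treatment and cell make-up, the genes most like each member by Pearson's r were computed. *Il6* was most like *Stat3* (r = 0.926) and *Nip7* (0.925), and *Stat3* was most like *Sbno2* (0.952) and *Nip7* (0.944). *Osmr* was most like *Myc* (0.948) and *Eif1a* (0.937), and *Socs3* was most like *Tex10* (0.904) and *Pgs1* (0.861). *Lifr* was most like *Exoc6* and *Oma1* (0.918 both), *Il6ra* like *Tnfrsf1b* (0.823) and *Ermard* (0.812), and *Il6st* like *Gnptab* (0.831) and *Atox1* (0.817). The dimmer ligands had lower values, with *Lif* most like *Dusp9* (0.785), *Osm* like *Ezr* (0.787) and *Clcf1* like *Esp36* (0.730). Among the members, r was 0.865 for *Il6* with *Osmr*, 0.854 for *Osmr* with *Stat3*, 0.753 for *Osmr* with *Socs3* and -0.699 for *Osmr* with *Lifr*.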

How the data were processed

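The deposited values were log2 expression values, made by the authors with RMA per the labels' processing notes, a method that corrects background, equalizes the distributions of the arrays and summarizes probes. The version of RMA is not given in the sources used here and the array type was not settled. The 20 array medians lay between 6.50 and 6.57. Of 28846 rows, 19572 had 1 gene symbol in the platform annotation and 9274 had none. For 55 genes with several probe sets the highest mean was kept, leaving 19505. Levels of different probe sets were not compared.

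The SC+ response was fitted in limma 3.58.1 (R 4.3.3, statmod 1.5.0) on the 10 SC+ arrays, and the other comparisons on all 20, with Benjamini-Hochberg adjustment over 19505 genes. Responses were called at an adjusted p under 0.05, and SC- against SC+ at an unadjusted p under 0.05 as in the study's methods. The fit of the SC+ day 1 response was tested on simulated data with independent noise. The other comparisons were not tested in that way, and no shift shared by arrays was simulated. The 2 arrays per group limit the precision. Members and lists were chosen with earlier results of these data known. Every member was named, together with each measured gene of lists of 5 or fewer and the 4 largest SC+ changes of longer lists. Some listed genes are not reported here.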

Additional observations from a re-analysis of the deposited data

Results flagged for a closer look

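The response of *Lif* to MOV differed between SC- and SC+ muscle in the test of the difference itself, by 0.76 at day 1 (unadjusted p = 0.0408), 1.05 at day 5 (unadjusted p = 0.0071) and 1.14 at day 7 (unadjusted p = 0.00398) on the log2 scale, with the SC- response the larger (limma; adjusted p = 0.986, 0.57 and 0.339). The day 1 value of *Lif* did not pass an unadjusted threshold of 0.05 with any 1 of 7 arrays left out (0.64 to 0.79, unadjusted p = 0.0636 to 0.119), and that of day 5 without SC+ MOV day 5 replicate 2 (0.77, unadjusted p = 0.052). The day 7 value passed whichever 1 array was left out. The SC- sham arrays of *Lif* were at 5.78 and 5.76 and the SC+ sham arrays at 6.75 and 6.72.

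The day 7 response of *Osm* also differed, by 1.00 (unadjusted p = 0.0206, adjusted p = 0.445, limma), with the SC- response the larger. It did not pass the unadjusted threshold without SC- MOV day 7 replicate 2 (0.72, unadjusted p = 0.111), SC- sham replicate 2 (0.82, unadjusted p = 0.0807), SC+ MOV day 7 replicate 1 (0.58, unadjusted p = 0.16) or SC+ sham replicate 1 (0.79, unadjusted p = 0.0883). *Osm* and *Lif* were both within the range of the background probe sets on all 20 arrays. With 10 members, 4.93%, 7.8% and 9.28% of all genes had such a difference at days 1, 5 and 7.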

How the results depend on the processing

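No member's called change turned its direction under any alternative. The number of members past the threshold at day 5 in SC- muscle was 3, against 5, with the array medians set equal and with all rows fitted. In SC+ muscle, *Il6ra* and *Socs3* at day 3 and *Il6* at day 5 missed with all rows and with all arrays in the fit. *Il6* at day 5 also missed with the trend and robust prior, and *Il6ra* at day 3 and *Osmr* at day 5 with the quantile normalization repeated. Over all member results, all rows, other arrays, the trend and the normalization ended 6, 3, 4 and 5 calls and added 0, 1, 0 and 3. For SC- against SC+ muscle the number of members past the threshold was 0 at day 3 with the quantile normalization repeated, against 1. At day 7 it was 1 with all rows fitted and with an intensity trend and robust prior, against 2. With the trend and robust prior it was 0, against 1, for the difference between the responses at day 1. Without 1 array, the counts in SC+ muscle lay between 2 and 6 at day 3, 1 and 5 at day 5, and 1 and 4 at day 7. In SC- muscle they lay between 3 and 6 at day 1, 2 and 6 at day 3, 2 and 5 at day 5, and 2 and 5 at day 7. For SC- against SC+ they lay between 1 and 3 in sham, 0 and 1 at day 1, 0 and 2 at day 3, 1 and 2 at day 5, and 1 and 3 at day 7. With all time points together they lay between 2 and 4, and for the difference between responses between 0 and 1 at days 1 and 3, 0 and 2 at day 5, and 1 and 2 at day 7. Such fits also have fewer arrays. Leaving out replicate 1 of both sham groups, an alternative chosen after seeing the data, gave 1 at day 5 in SC+ muscle, 2 at days 3, 5 and 7 in SC- muscle, 2 for SC- against SC+ at day 3, and 0 and 1 for the difference between responses at days 1 and 7. Leaving out replicate 2 of both, also chosen after seeing the data, gave 4 at day 7 in SC+ muscle, 2 for SC- against SC+ at day 3, and 0 and 2 for the difference between responses at days 1 and 5. The values of listed genes without 1 sham array were likewise chosen after seeing the data. The cause of these shifts was not tested.

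Pairing by replicate number was not assumed, since the sources used here give them no shared animal, batch or day. The 45 correlations of the deviations of same-numbered arrays ran from -0.155 to 0.216, with a median of -0.009. Of these, 12 were over 0.1, and others were under -0.1. With the replicate number as a block, the counts were 5, 6, 4 and 1 at days 1, 3, 5 and 7 in SC+ muscle and 6, 6, 4 and 5 in SC- muscle, and for SC- against SC+ at day 3 the count was 2, against 1. At the other comparisons of SC- with SC+ it was 1 in sham, 0 at day 1, 2 at day 5, 2 at day 7 and 2 with the time points together, and 1, 0, 1 and 3 for the difference between the responses. In the block fit *Il6* at day 5 in SC- muscle no longer passed (1.95, adjusted p = 0.0523), and *Clcf1* passed at day 7 in SC- muscle (0.69, adjusted p = 0.029), in the difference of responses at day 7 (0.72, unadjusted p = 0.0365) and for SC- against SC+ at day 3 (-0.54, unadjusted p = 0.0271). Another background correction could not be run on processed values.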
